A study of Homo sapiens with 16 samples.

Results

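TAL1 and its neighbour STIL lie next to each other on chromosome 1, and their chromatin contacts were followed through 4 lengths of digestion with the restriction enzyme HindIII. TAL1 (chr1, 47.682 to 47.698 Mb, build hg19) and STIL (47.716 to 47.780 Mb) covered 5 of the 137198 genomic bins of 20 kb that were present in all libraries of the second sequencing run and were tested. The members were the bins that overlap either gene, a rule of position that was set with earlier results of these data known. Their contacts were read within 46.7 to 48.7 Mb, a window of 100 bins of which 99 were present. TAL1 filled part of a single bin, chr1:47680001-47700000. STIL fell in 4 bins, named here by the direction of its transcript, which like that of TAL1 runs towards lower coordinates. The STIL end bin (chr1:47700001-47720000) held only 4 kb of the gene. The first inner STIL bin (chr1:47720001-47740000) and the second inner STIL bin (chr1:47740001-47760000) lay wholly inside it. The STIL start bin (chr1:47760001-47780000) held the end of the gene where its transcript starts, at the upper edge of the bin. At the precision of these coordinates the STIL promoter could not be placed on either side of that edge. Other bins are given by their distance in kb from the TAL1 bin, negative towards lower coordinates.

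Hi-C ligates DNA ends that are close in nuclear space and sequences the ligated pairs. It was run on formaldehyde-fixed nuclei of K562, an established human leukaemia cell line with erythroid features, and 2 replicate libraries were made at each of 0.25, 1, 3 and 12 h of HindIII digestion. The stated purpose of the time series was to find the domain boundaries that are cut first, as the most accessible. All groups were the same untreated cells, so digestion time is the only labelled difference between them. The labels do not say whether replicates were separate cultures, so p-values measure only the spread between these samples, which may be technical. The files held no expression values, so the identity of the cells was not checked against marker genes.

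TAL1 encodes a basic helix-loop-helix transcription factor needed for blood stem cells and for red cell development, where it acts with GATA factors. STIL encodes a protein of centriole duplication. The genes are known together from T-cell acute leukaemia, in which a small deletion between them places TAL1 under the control of the STIL promoter. In erythroid cells TAL1 is known to be driven from its own promoters and by an enhancer downstream of the gene. In the order of the RefSeq annotation, PDZK1IP1 is the next protein-coding gene below TAL1 and CMPK1 the next above STIL. That annotation belongs to a later assembly, so neighbouring genes and the enhancer were not placed in bins here.

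The promoter of TAL1 is shown because the contacts below are centred on the bin that holds it. RefSeq (build GRCh38.p14) gave 3 promoter entries for the genes, 2 for TAL1 and 1 for STIL. The outer TAL1 promoter, the 250 bases before the start at chr1:47232336-47232585 of that build on the minus strand, lies outside the gene. Capitals mark its GATA motif (AGATAA, searched on both strands, here as its reverse complement), which begins 35 bases before the start.
TAL1 promoter: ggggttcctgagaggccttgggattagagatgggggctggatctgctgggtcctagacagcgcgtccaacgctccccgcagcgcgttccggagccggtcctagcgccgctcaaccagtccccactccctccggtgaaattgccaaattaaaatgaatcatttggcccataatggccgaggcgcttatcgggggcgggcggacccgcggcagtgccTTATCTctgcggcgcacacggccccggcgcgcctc
The motif was absent from the other TAL1 entry and from the STIL entry, each read from 250 bases before to 50 after the start, and 10.3% of 35116 promoters of that length held it. None of the 3 entries held the HindIII site AAGCTT, which reads the same on both strands and was found in 5.84% of promoters.

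The second run held 62777251 to 176412222 contacts per library, with 0.25 h replicate 2 the shallowest and 12 h replicate 1 the deepest. The 12 h libraries were the deepest under each replicate number, so depth and digestion time moved together and their parts in the results were not tested. Between 11.5% and 24.2% of contacts joined ends inside the same 20 kb bin, and 88.0% to 90.3% joined ends on the same chromosome. In the results that follow, contact over expected is the deposited balanced signal of a pair of bins divided by the mean of all pairs on chromosome 1 at the same distance. A value of 1 is the chromosome average, and values for all 8 libraries together are ratios of sums.

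TAL1 and STIL lay in a single segment, bounded on both sides by bins that few contacts crossed. The insulation score, the log2 of the mean signal between the 200 kb below and the 200 kb above a bin over the chromosome mean, fell to its lowest value of the whole window at chr1:47620001-47640000, 60 kb below the TAL1 bin. There it was -1.23 with all libraries added. Among all bins 0.428% scored lower, and among 7753 local minima of the genome 3.31% did. In single libraries the score at this bin was -1.13 and -1.42 at 0.25 h, -1.45 and -1.23 at 1 h, -1.01 and -1.34 at 3 h, with -1.27 and -1.17 at 12 h. The ranges of the times overlapped.

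The nearest minimum above the genes, at chr1:47880001-47900000, was shallower, with a score of -0.71 and a range of -0.79 to -0.66 over the 8 libraries. Among all bins 4.13% scored lower, and among the local minima of the genome 19.6% did. This upper minimum lay 120 kb above the STIL start bin, which put the minima 260 kb apart. None of the 6 minima of the window fell inside the TAL1 or STIL bins. Their own scores were close to the genome median of -0.04. With all libraries added they were -0.11 for the TAL1 bin, 0.07 for the STIL end bin, -0.00164 and -0.04 for the inner STIL bins and -0.11 for the STIL start bin. The lower minimum was placed 20 kb nearer to TAL1, at -40 kb, with windows of 100 kb (score -1.07) and 500 kb (score -0.68), though the scores at -60 kb were -1.06 and -0.68. The upper minimum moved as well, to 180 kb with the 100 kb window (-0.52, against -0.51 at 200 kb) and to 160 kb with the 500 kb window (-0.50, against -0.45 at 200 kb), so the span between the minima depended on the window. Without balancing, with the 200 kb window, the minima were at -40 kb (-1.79, against -1.72 at -60 kb) and 180 kb (-1.47, against -1.17 at 200 kb), and the members scored -0.70 to -0.61. In the first sequencing run, at 50 kb bins, the lowest bin of the same stretch was chr1:47600001-47650000, with a mean score of -1.46 over its 8 libraries.

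**Figure D1:**
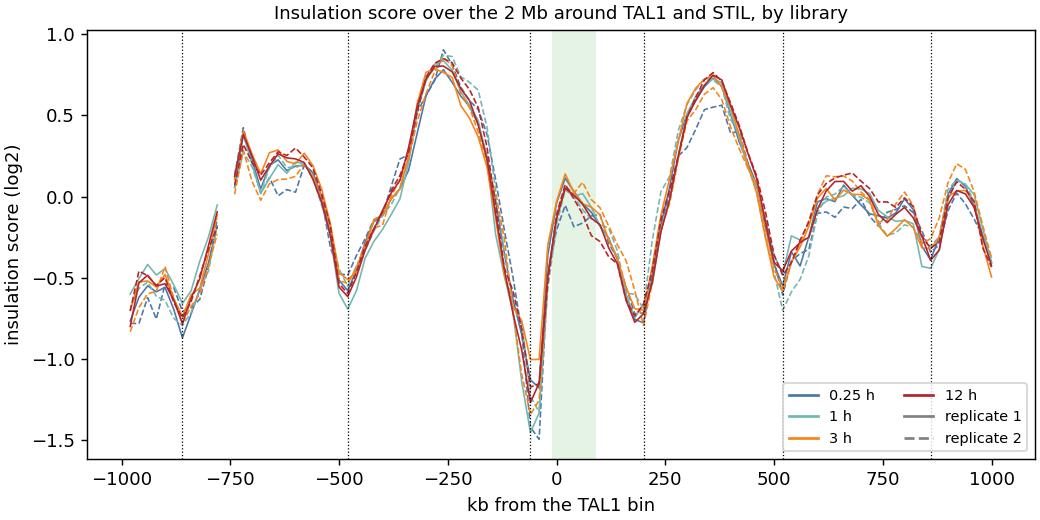
Insulation score (log2, y axis) of every 20 kb bin against its distance from the TAL1 bin in kb (x axis), 1 line per library, coloured by digestion time, solid for replicate 1 and dashed for replicate 2. The shaded band marks the TAL1 and STIL bins and dotted lines the 6 minima, of which that at -60 kb is the lowest at -1.23 in the sum of libraries.

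Contacts of both genes dropped across these minima. With the bins between them (chr1:47640001-47880000, pairs at least 40 kb apart), the TAL1 bin had a contact over expected of 1.45, and the 4 STIL bins together had 1.44. In single libraries the values ran from 1.35 to 1.54 for TAL1 and from 1.32 to 1.58 for STIL. With the segment directly below (chr1:47220001-47620000) TAL1 had 0.40 and STIL 0.45, ranging from 0.31 to 0.48 and from 0.35 to 0.56. With the segment directly above (chr1:47900001-48200000) TAL1 had 0.52, ranging from 0.40 to 0.80, and STIL had 0.47, ranging from 0.39 to 0.53. No library of either gene overlapped between its own segment and a flanking one. Without balancing all of these ratios were below 1, at 0.74 for TAL1 and 0.83 for STIL in their own segment, 0.18 and 0.22 below it and 0.26 for both above it, so the drop across the minima was present on either scale and the excess over the chromosome average was not. These segments were drawn from the same contacts, so the difference describes them and is not a test.

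The ratio was not lowest in all of the far segments. Below the adjacent segment it was near the chromosome average, with 1.06 for TAL1 and 1.02 for STIL at chr1:46840001-47200000. At the lower edge of the window (chr1:46700001-46820000) it was 1.34 for TAL1 and 1.24 for STIL, on 72 and 294 contacts. Without balancing these were 0.54, 0.56, 0.64 and 0.70, above those of the adjacent segment but below 1. On the other side it stayed low to the edge of the window. It was 0.40 for TAL1 and 0.36 for STIL at chr1:48220001-48540000, and 0.28 and 0.33 at chr1:48560001-48700000, where the TAL1 value rested on 19 contacts.

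**Figure D2:**
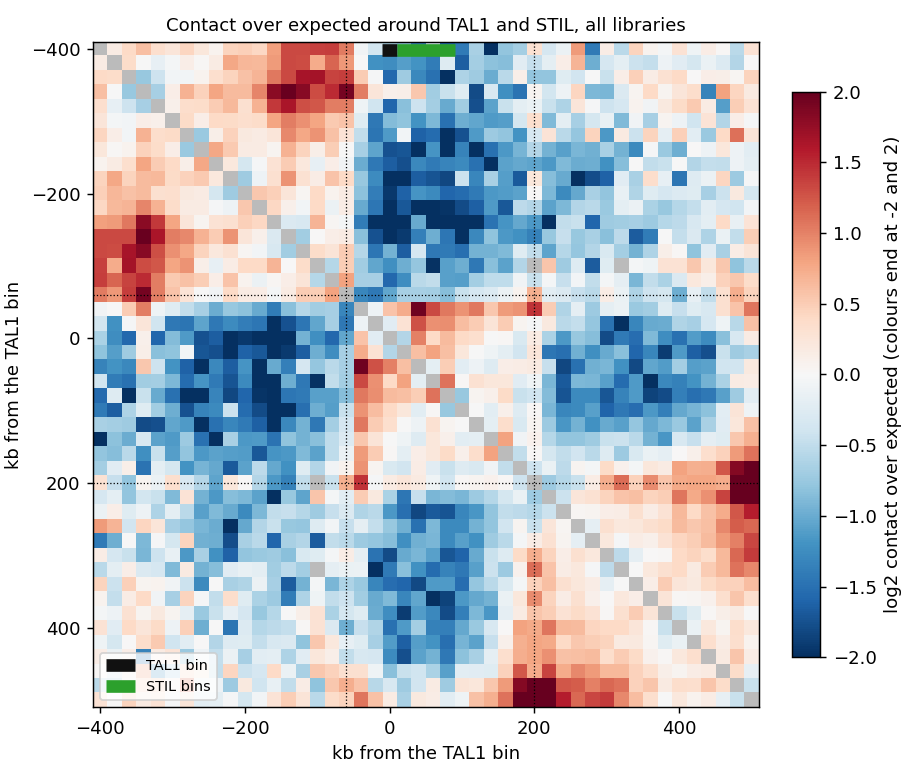
Map of contact over expected (log2, colour) for pairs of 20 kb bins from 400 kb below to 500 kb above the TAL1 bin, all 8 libraries added; grey cells are the diagonal or pairs without contacts, and dotted lines are insulation minima. The block between -60 and 200 kb, which holds TAL1 and STIL (bars at the top), is set off by mostly blue pairs that join it to the segments on both sides. A red stripe runs along its lower edge at -40 kb.

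The highest ratio of the first and of the second inner STIL bin with any bin named here was with the lowest bin of the segment, chr1:47640001-47660000, at -40 kb. The TAL1, STIL end and STIL start bins had higher ratios with other member bins, given further on. With the other insulation windows and without balancing, the bin at -40 kb was itself the lower minimum. Its pairs count in the ratios of the genes with their own segment. This bin was singled out after its values had been seen, so its values are a description. With the first inner STIL bin, 80 kb away, it had 408 contacts (95% Poisson interval 369 to 450, which covers counting error only, because no molecular identifiers are described and whether PCR copies were removed is not given in the sources used here). The contact over expected was 3.87, and 99.9% of 134286 pairs at that distance in the genome were lower. By library it was 4.05 and 4.06 at 0.25 h, 3.56 and 3.86 at 1 h, 4.96 and 3.28 at 3 h, with 3.96 and 3.18 at 12 h. All 8 libraries were above 3. Both 12 h libraries lay below both 0.25 h libraries, while the 3 h libraries lay on either side of the 0.25 h ones.

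The same bin contacted the second inner STIL bin at 2.50 times the expected level (295 contacts) and the STIL start bin at 2.07 (320 contacts). With the STIL end bin the value was 1.68 (354 contacts), and with the TAL1 bin, only 40 kb away, it was 1.48 (408 contacts). The TAL1 bin, the nearest of the 5, thus had the lowest ratio. Ranges over libraries were 1.90 to 3.15 for the second inner STIL bin, 1.74 to 2.67 for the STIL start bin, 1.10 to 2.04 for the STIL end bin and 1.12 to 2.44 for the TAL1 bin. The first inner STIL bin therefore stood above all the others in every library, while the TAL1 and STIL end bins overlapped.

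The stripe ran upwards from this bin. The bin at -40 kb was above the expected level with all 6 bins between STIL and the upper minimum, at 1.45 to 2.74. The highest of these was with the upper minimum itself, on 43 contacts. With the 13 bins directly below it the ratio was 0.38 to 0.85, below 1 for all of them, and with the adjacent bin at -60 kb it was 0.41 on 401 contacts. Farther below the ratio was again above 1 at some bins, with 2.04 at -340 kb, 1.42 at -360 kb and 1.58 at -780 kb. Beyond the upper minimum it was also above 1 at some bins, with 1.42 at 220 kb and 2.09 at 500 kb. The bin at -20 kb lies between the bin at -40 kb and TAL1. On the balanced signal its ratio was 0.86 with the TAL1 bin, 1.22 with the STIL end bin, 2.42 with the first inner STIL bin, 1.89 with the second and 1.90 with the STIL start bin. Without balancing all 5 were below 1, at 0.19, 0.34, 0.44, 0.47 and 0.72 in the same order.

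Balancing entered these values. The first inner STIL bin had 5176 contacts with other bins in all libraries and only 16.9% of bins had fewer, while the bin at -40 kb had 14250 and 70.6% had fewer. Without balancing, the ratios of the bin at -40 kb were 2.106 with the first inner STIL bin, 1.83 with the second, 2.303 with the STIL start bin, 1.41 with the STIL end bin and 1.06 with the TAL1 bin. All 5 stayed above 1, but the first inner STIL bin no longer ranked first. With the 6 bins above STIL the ratio of the bin at -40 kb without balancing was 0.54 to 5.16, above 1 for 5 of them, and the upper minimum, highest on the balanced signal, was the one below 1. With the 13 bins below it the ratio was 0.10 to 1.12, and 3 of them were above 1.

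**Figure D3:**
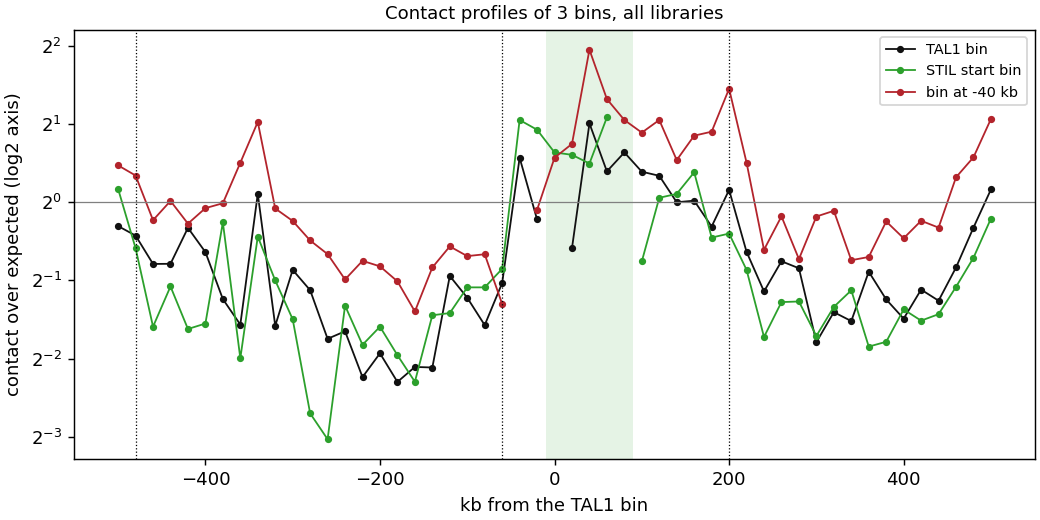
Contact over expected (log2 axis) of the TAL1 bin, the STIL start bin and the bin at -40 kb with every bin within 500 kb of TAL1, all libraries added; the shaded band marks the TAL1 and STIL bins and dotted lines the insulation minima. The bin at -40 kb reaches 3.87 at the first inner STIL bin, and all 3 profiles lie mostly below 1 outside the segment.

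Whether pairs of members exceeded the chromosome average depended on balancing. On the balanced signal 8 of 10 pairs did, and without balancing 1 of 10 did, the second inner STIL bin with the start bin at 1.02. The other 9 then lay between 0.20 and 0.91. Ratios without balancing are not adjusted for how many contacts each bin has. Contacts with other bins in all libraries were 6561 for TAL1, 7587 for STIL end, 5176 and 7427 for the inner bins. The STIL start bin had 10487, against a genome median of 10411. The part of these totals in the ratios was not tested. On the balanced signal the TAL1 bin met the first inner STIL bin at 2.01 times the expected level, on 193 contacts, and 99.5% of pairs at 40 kb were lower. Without balancing the same pair was at 0.50. By library the balanced ratio was 2.00 and 1.40 at 0.25 h, 1.76 and 1.86 at 1 h, 2.37 and 1.95 at 3 h, with 2.03 and 2.20 at 12 h. All libraries were above 1. Both 12 h libraries lay above both 0.25 h libraries, and the 0.25 h libraries spanned those of 1 h. Between the TAL1 bin and the STIL start bin, which hold the starts of the genes, the ratio was 1.56 on 157 contacts. In single libraries it was 1.18 and 1.49 at 0.25 h, 1.31 and 1.99 at 1 h, 1.21 and 2.15 at 3 h, with 1.85 and 1.38 at 12 h. Without balancing this pair of bins was at 0.81.

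On the balanced signal the TAL1 bin and the second inner STIL bin had a ratio of 1.31 on 114 contacts, with a range over libraries of 0.24 to 2.18. In 0.25 h replicate 2 that pair rested on a single contact. By contrast, the TAL1 bin and the adjacent STIL end bin met less often than the average pair of neighbours, at 0.67 (0.24 without balancing) on 237 contacts, and all 8 libraries were below 1 (0.47 to 0.76). Inside STIL the strongest pair was the second inner bin with the start bin, at 2.12 on 1013 contacts, ranging from 1.72 to 2.48. The inner bins met each other at 0.87, ranging from 0.75 to 1.02. The other 4 pairs within STIL had ratios of 1.41 to 1.74.

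**Figure D4:**
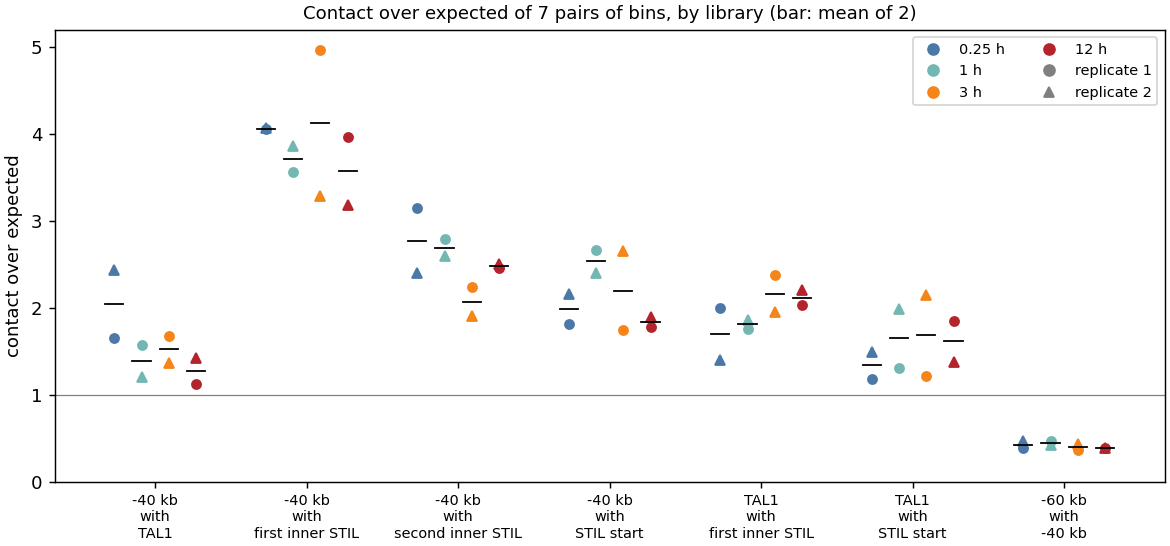
Contact over expected on the balanced signal (y axis) of 7 pairs of bins in each library, coloured by digestion time, with circles for replicate 1, triangles for replicate 2 and a bar at the mean of 2. The bin at -40 kb with the first inner STIL bin lies between 3.18 and 4.96, and with its lower neighbour at -60 kb it stays below 0.5. TAL1 with the first inner STIL bin and with the STIL start bin lies above 1 in every library. Without balancing these pairs were at 0.50 and 0.81, all libraries added. The pairs of TAL1 with the STIL end bin (0.47 to 0.76) and the second inner STIL bin (0.24 to 2.18) are not plotted.

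By rank over the whole window, at distances of 40 kb or more, 4 of the 5 highest balanced ratios of the TAL1 bin were with far bins. These were at -900 kb (2.81, 20 contacts), -820 kb (2.03, 21 contacts), -860 kb (1.96, 26 contacts) and -780 kb (1.58, 22 contacts), and the first inner STIL bin was the other. Without balancing the 4 far ratios were 0.95 to 1.27. On the balanced signal they ranged from 0 to 5.86 over single libraries, and the pairs held too few contacts to be tested. For the STIL start bin the 5 highest were the bin at -40 kb, the bin at -20 kb, the bin at -860 kb (1.87, 34 contacts), the TAL1 bin and the STIL end bin (1.52, 230 contacts).

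The contact profile of TAL1 was most like that of the bin at 100 kb, just above STIL, followed by those of the first inner STIL bin and the STIL start bin. Over the window, leaving out bins under 40 kb from either, the log2 ratios of the TAL1 bin correlated with those of the bin at 100 kb at a Pearson r of 0.77 (92 bins). With the first inner STIL bin r was 0.76, with the STIL start bin 0.74, with the STIL end bin 0.71 and with the second inner STIL bin 0.66. Outside the genes the bins at 120 kb (r 0.71) and -40 kb (r 0.69) came next. Without balancing the same 3 bins came first, at r 0.86, 0.84 and 0.84. These are correlations across bins of the same added libraries, which share distance to the same minima, and bins are not independent replicates.

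Apart from these contacts, the TAL1 bin stood out in how many of its contacts left the neighbourhood. Of its contacts with other bins, 20.9% went to other chromosomes, the highest share among the 99 bins of the window, whose median was 15.96%. In the genome, where the median was 12.7%, 90.1% of bins had a lower share. Of its contacts within chromosome 1, 56.0% lay within 1 Mb, the lowest share in the window (median 65.2%). The STIL bins had trans shares of 15.96% to 19.7% and local shares of 56.2% to 64.3%, with the STIL end bin closest to TAL1 in both. The inner STIL bins had very few contacts inside themselves, 1.32% and 1.01% of their total against a genome median of 6.05%. The TAL1, STIL end and STIL start bins had 5.27%, 4.66% and 6.37%.

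The comparison of digestion times asks which of these measures differed between 12 h and 0.25 h. Each was fitted with limma over all bins or pairs of the genome, with Benjamini-Hochberg adjustment over all of them, and called at an adjusted p under 0.05. Coverage, the number of contacts of a bin with other bins per 1000000 such contacts summed over all bins tested, rose in 1 of the 5 member bins, TAL1. In all, 55.7% of bins were called. Of those called, 62.7% rose, or 49.9% when libraries were scaled by median-of-ratios size factors.

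TAL1 coverage was 3.79 and 3.80 contacts per 1000000 at 0.25 h, 4.02 and 3.78 at 1 h, 3.86 and 3.98 at 3 h, with 4.23 and 4.77 at 12 h. Both 12 h libraries lay above the 6 others. The log2 difference from 0.25 to 12 h was 0.24 (SE 0.06, limma adjusted p = 0.00275). The STIL bins did not pass, with log2 differences of -0.01 to 0.12 and limma adjusted p of 0.088 to 0.946. The median was 0.10 over the members, 0.28 over the window, where 77 of 99 bins rose and 1 fell, and 0.05 over all bins. Without 12 h replicate 2 the TAL1 difference was 0.16 and no longer passed (limma adjusted p = 0.121). It did not pass either on contacts between chromosomes alone, where the log2 difference was 0.44 (limma adjusted p = 0.0775). The second inner STIL bin passed without 0.25 h replicate 1 (0.19, limma adjusted p = 0.0117) and the STIL start bin without 0.25 h replicate 2 (0.14, limma adjusted p = 0.0324).

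The share of contacts inside the bin includes ends of neighbouring fragments joined to each other. It was tested as the log2 odds of contacts inside the bin against contacts with other bins. The odds fell in 2 of the 5 member bins, TAL1 and STIL start, and 65.9% of all bins were called, 90103 of them lower and 311 higher. The TAL1 share was 6.51% and 7.91% at 0.25 h, 5.96% and 6.05% at 1 h, 4.86% and 6.20% at 3 h, with 4.43% and 3.72% at 12 h. Both 12 h libraries had the lowest values, and the log2 odds fell by 0.87 (SE 0.28, limma adjusted p = 0.0187).

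In the STIL start bin the share was 7.84% and 6.89% at 0.25 h, 6.74% and 6.90% at 1 h, 7.37% and 6.43% at 3 h, with 5.94% and 4.44% at 12 h. Here too both 12 h libraries were the lowest, and the log2 odds fell by 0.55 (SE 0.20, limma adjusted p = 0.0317). The first inner STIL bin held only 2 to 12 contacts inside itself per library, and its log2 difference of -1.40 (SE 0.58, limma adjusted p = 0.0545) did not pass. It ran from -1.92 to -0.88 when single libraries were left out, and passed without 0.25 h replicate 1, either 1 h library or 12 h replicate 2, and with the 0.25 and 12 h libraries alone (limma adjusted p of 0.0255 to 0.0395). The second inner bin, with 2 to 17 contacts, had 0.37, and the STIL end bin had -0.16. Neither kept its sign, with -0.12 to 0.87 and -0.46 to 0.15 when single libraries were left out. At its highest, without 0.25 h replicate 1, the second inner bin passed (limma adjusted p = 0.0472). The median over members was -0.55, against -0.81 over the window and -0.82 over all bins. The TAL1 call was lost when 0.25 h replicate 2 was left out (-0.72 at a limma adjusted p of 0.0639) and likewise for 12 h replicate 2 (-0.74, adjusted p 0.121). For the STIL start bin this was so for 0.25 h replicate 1 (-0.46 at a limma adjusted p of 0.094) and for 12 h replicate 2 (-0.34, adjusted p 0.269). That call was also lost with the 0.25 and 12 h libraries alone (limma adjusted p = 0.0737) and with contacts up to 1 Mb as the denominator (limma adjusted p = 0.0579).

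**Figure D5:**
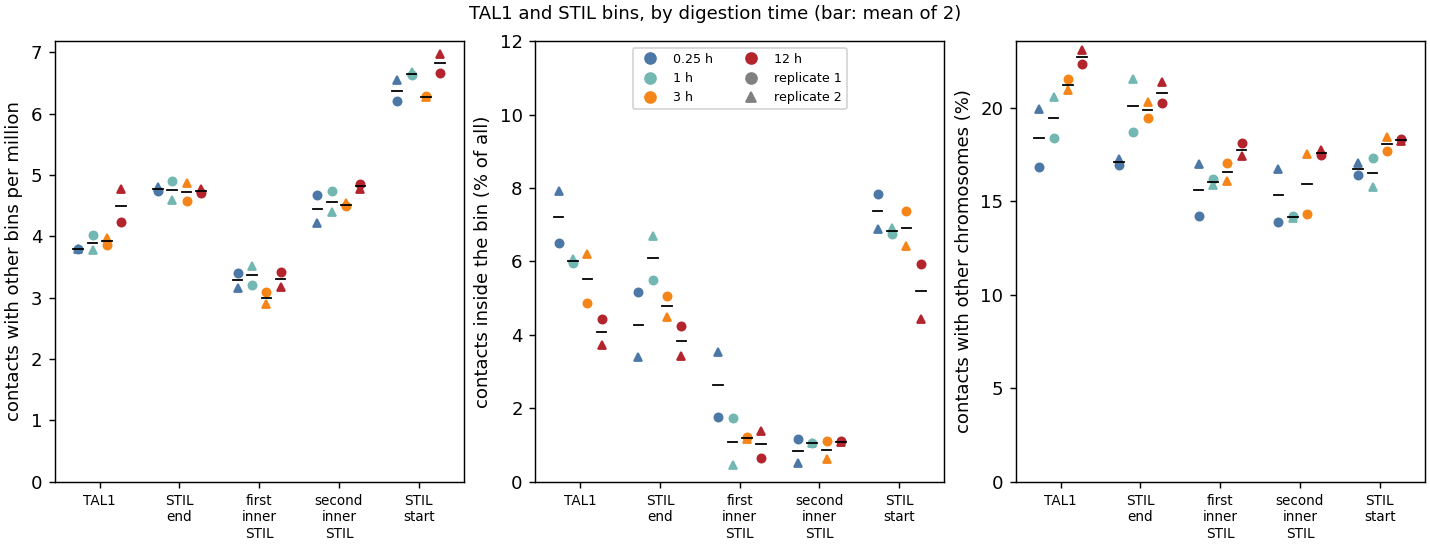
Coverage (contacts per 1000000), contacts inside the bin (% of all contacts of the bin) and contacts with other chromosomes (% of contacts with other bins) for the 5 TAL1 and STIL bins in each library, coloured by digestion time, with circles for replicate 1, triangles for replicate 2 and a bar at the mean of 2. The TAL1 bin at 12 h shows the highest coverage of its 8 libraries (4.23 and 4.77) and the lowest share inside the bin (4.43% and 3.72%).

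Balance between the sides of a bin was tested as the log2 odds of contacts up to 500 kb above it against those up to 500 kb below it. It fell in 1 of the 5 member bins, the second inner STIL bin, and 4.44% of all bins were called. Of its contacts within 500 kb, 65.9% and 69.4% lay above it at 0.25 h, 66.9% and 68.4% at 1 h, 64.2% and 67.9% at 3 h, with 56.8% and 59.4% at 12 h. Both 12 h libraries lay below the 6 others, and the log2 odds fell by 0.59 (SE 0.15, limma adjusted p = 0.0172). The call was lost on the deposited balanced signal (-0.48, limma adjusted p = 0.23). It was also lost when 0.25 h replicate 2 (-0.48, adjusted p 0.143), 12 h replicate 1 (-0.52, adjusted p 0.249) or 12 h replicate 2 (-0.67, adjusted p 0.0995) was left out of the limma fit.

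The other members had no call, except the STIL start bin when 0.25 h replicate 1 was left out (-0.46, limma adjusted p = 0.0374). The TAL1 bin sent 51.9% to 64.2% of these contacts upwards, towards STIL, and the STIL end bin 56.6% to 64.4%. The first inner STIL bin sent 36.9% to 47.1% upwards, below 50% in all 8 libraries, and the STIL start bin 43.3% to 56.4%, above 50% only in 0.25 h replicate 2.

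Trans odds, the log2 odds of contacts with other chromosomes, passed in 0 of the 5 member bins under limma, with 1.32% of all bins called. Unadjusted p was under 0.05 in 2 of them, TAL1 and STIL end, against 14.5% of all bins. All 5 differences were positive, with a median of 0.24. The median was -0.009 over the window and 0.06 over all bins. Of the 1811 bins called, which include no member, 95.4% rose. The share of all bins with a positive difference is not given here. The trans share of the TAL1 bin was 16.8% and 19.9% at 0.25 h, 18.4% and 20.6% at 1 h, 21.5% and 20.96% at 3 h, with 22.3% and 23.1% at 12 h. The 12 h libraries were the highest, yet the log2 difference of 0.38 (SE 0.16) did not pass (limma adjusted p = 0.251). It was 0.23 without 0.25 h replicate 1 and 0.54 without 0.25 h replicate 2, and passed in neither case (limma adjusted p = 0.497 and 0.094). Local odds, of contacts within 1 Mb against farther ones on the chromosome, passed in 0 of 5 under limma, with 0 at an unadjusted p under 0.05 and 3.18% of all bins called. Their log2 differences ran from -0.08 to 0.17.

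Insulation of the member bins gave 0 calls of 5 under limma, with 0 at an unadjusted p under 0.05. None of the 134511 bins tested was called (0%), although 10776 had an unadjusted p under 0.05. The log2 differences of the members ran from -0.08 to 0.07, each with an SE of 0.06 to 0.07.

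Of 480 pairs of a member bin with another present bin of the window, 38 held at least 10 contacts on average and were tested, and the farthest spanned 140 kb. The untested pairs held 5975 of 15266 contacts. None of the 38 was called under limma, and 0.112% of all 1278057 pairs tested were called. The unadjusted limma p was under 0.05 in 4 of the 38 and in 6.79% of all pairs. The pair with the smallest p of those named was the TAL1 bin with the bin at -40 kb, whose ratio was 1.65 and 2.44 at 0.25 h, 1.57 and 1.20 at 1 h, 1.67 and 1.37 at 3 h, with 1.12 and 1.42 at 12 h. Both 0.25 h libraries were among the 3 highest, but its log2 difference of -0.67 (SE 0.22) did not pass (limma adjusted p = 0.489). The first inner STIL bin with the bin at -40 kb had a log2 difference of -0.20 (SE 0.21), and the TAL1 bin with the STIL start bin had 0.22 (SE 0.35). Leaving out 0.25 h replicate 1 left a single library at 0.25 h. The log2 difference of the TAL1 bin was then -0.96 with the bin at -40 kb and 1.97 with the second inner STIL bin. For the latter pair the remaining 0.25 h library held a single contact. In the window 2 of 737 tested pairs were called, neither with a member bin. They joined chr1:47860001-47880000 to chr1:47960001-47980000 (log2 difference 2.50, limma adjusted p = 0.0486) and chr1:48280001-48300000 to chr1:48300001-48320000 (-0.89, limma adjusted p = 0.000133), and they were named after their values were seen. The first of them held 5 and 0 contacts at 0.25 h. Its difference was 1.26 and did not pass without 0.25 h replicate 2, which held the 0 (limma adjusted p = 0.659), and the call was also lost without any one of the 1, 3 or 12 h libraries.

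Between neighbouring times, the only call in a member bin was the TAL1 coverage, which rose from 3 to 12 h (log2 difference 0.19, limma adjusted p = 0.0195), where 38.4% of all bins were called. TAL1 no longer passed when 3 h replicate 1 (0.17, adjusted p 0.134), 3 h replicate 2 (0.22, adjusted p 0.0524) or 12 h replicate 2 (0.11, adjusted p 0.36) was left out of the limma fit, nor on contacts between chromosomes alone (0.21, limma adjusted p = 0.599). With the replicate number as a block, the STIL start bin was called too (log2 difference 0.12, limma adjusted p = 0.0285), as it was without either 0.25 h library. For coverage and for contacts inside the bin, limma called none of the 137198 bins from 0.25 to 1 h or from 1 to 3 h (0%). At an unadjusted p under 0.05 there were 13661 and 8101 bins for coverage and 26123 and 4559 for contacts inside the bin. From 3 to 12 h 56.6% of bins were called for contacts inside the bin, and 0 of the 5 members were among them. The unadjusted limma p was under 0.05 in 1 of the 5 and in 62.2% of all bins. The other measures gave 0 member calls at every step under limma, with at most 2 of 5 bins and 3 of 38 pairs at an unadjusted p under 0.05. Both were from 0.25 to 1 h, the bins for the balance of sides. There 8.60% of all bins and 8.21% of all pairs had such a p. Leaving out 0.25 h replicate 1 added calls from 0.25 to 1 h for contacts inside the STIL end bin, the balance of sides of the STIL start bin and pairs of members. That fit rests on a single 0.25 h library, and the share of all bins or pairs it called is not given here. In the fit with all libraries, the shares of all bins called from 3 to 12 h were 0.0488% for trans odds, 0.111% for local odds and 0.461% for the balance of sides, with 0.00775% of pairs. From 0.25 to 1 h they were 0.00292% for local odds and 0.0066% for the balance of sides, and from 1 to 3 h the latter had 0.0044%.

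The first sequencing run, of the same libraries, covered the genes with 3 bins of 50 kb and 8918994 to 20237350 contacts per library. Its ratios are on the balanced signal, and values without balancing are not given here for it. There the bin with TAL1 (chr1:47650001-47700000) met the STIL bins above it at 1.41 and 1.61 times the expected level, on 127 and 91 contacts. The STIL bins met each other at 1.29. The bin with TAL1 met the bin below it, which holds the minimum, at 0.76 on 118 contacts. That lower bin met the STIL bins above the expected level, at 1.32 and 1.11 on 87 and 75 contacts. The bin at -40 kb is split between the lower bin and the bin with TAL1, which also holds the bin at -20 kb.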

How the data were processed

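The 8 Hi-C libraries of K562 cells were each sequenced in 2 runs, and the second run, at 20 kb bins, was analysed. The authors deposited 1 balanced contact signal per pair of bins and library. Per the submitters' processing notes, which state no order or role, HiC-Pro 2.11.1, Bowtie2 2.3.4.1 and build hg19 were used; read filters and the balancing method are not given in the sources used here. Balancing gives all bins the same total, so signals were turned back into whole contacts by dividing by bin factors. All values came within 0.01 of a whole number. Highest bin numbers equalled those of chromosomes 1 to 22, X, Y and M of hg19, which set the coordinates.

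Log2 measures (prior 0.5 contacts) were fitted with limma 3.58.1 in R 4.3.3 (lmFit, eBayes with trend on log2 mean contacts, digestion time as a factor with 4 levels, no replicate block). Pairs needed 10 contacts on average and a distance up to 2 Mb. Scripts were tested on simulated data. The count tests of edgeR and DESeq2 were not used. The deposited unit is a signal, and the contacts fitted here were recovered from it. Named were all member bins, all pairs among them, the 5 highest pairs of the TAL1 and STIL start bins, the nearest insulation minima, the 3 most similar profiles, and called pairs of members with the 3 largest rises and falls, of which there were none. The members, lists and rules were chosen with earlier results of these data known. Deviations of libraries with the same replicate number correlated between times at r of 0.11 to 0.25 for coverage, 0.02 to 0.13 for contacts inside the bin and at most 0.03 for the other measures. Alternatives were a replicate block, leaving out each library, the 0.25 and 12 h libraries alone, the first run, and other scalings, limits, windows and balancing. The values without balancing for segments, insulation minima and likeness were added after seeing the data.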

Additional observations from a re-analysis of the deposited data

How the results depend on the processing

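Calls in the TAL1 and STIL bins rested on few libraries. Leaving out each library in turn, the number of member bins called between 0.25 and 12 h ranged from 0 to 2 for coverage, 1 to 3 for contacts inside the bin, 0 to 2 for the balance of sides and 0 to 2 for member pairs. Over the neighbouring times it ranged from 0 to 2 for coverage, 0 to 1 for contacts inside the bin, 0 to 1 for the balance of sides and 0 to 2 for pairs. Between 0.25 and 12 h the 4 member differences called kept their sign when single libraries were left out, while 12 of the 26 not called changed sign at least once. Trans odds, local odds and insulation kept 0 called member bins under all alternatives run. With the replicate number as a block, coverage had 2 calls over the neighbouring times in place of 1, and no other number of member calls moved by over 1.5 times. The labels do not pair the libraries. Contacts between chromosomes alone gave 0 coverage calls in both comparisons. Contacts up to 1 Mb as the denominator gave 1 call for contacts inside the bin, and the balanced signal gave 0 for the balance of sides. The first run alone, with 3 member bins, gave 0 calls for coverage in both comparisons, 1 for contacts inside the bin in both, and 0 for the balance of sides. For contacts inside the bin, the fit with all libraries called 65.9% of all bins between 0.25 and 12 h. The shares under the alternatives are not given here for that measure or for the neighbouring times. Those member counts are therefore not read as a result about the members.

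Counts over all bins or pairs between 0.25 and 12 h also moved with the setting, and those for contacts inside the bin are not listed here. For coverage they were 76461, or 3508 on contacts between chromosomes and 15330 of 55271 bins in the first run. For trans odds they were 1811, or 116 (without 12 h replicate 1) to 3180 (without 0.25 h replicate 1), 174 with the 0.25 and 12 h libraries alone and 4 in the first run. For local odds they were 4357, or 507 (without 12 h replicate 1) to 10456 (without 0.25 h replicate 1), 8426 with the replicate block, 7212 at a limit of 200 kb and 52 in the first run. For the balance of sides they were 6060, or 1482 (without 12 h replicate 2) to 11585 (without 0.25 h replicate 1), 3716 with the 0.25 and 12 h libraries alone, 866 on the balanced signal and 38 in the first run. Insulation gave 0 in limma, or 179 without 0.25 h replicate 1, 16 with a window of 500 kb and 56739 without balancing. Pairs gave 1427, or 481 (without 12 h replicate 2) to 22678 (without 0.25 h replicate 1), 448 with the 0.25 and 12 h libraries alone, 2900 at 30 contacts, 832 at 5, 15880 without balancing and 20 in the first run. The causes were not tested. Pairs needed 10 contacts on average, and the farthest member pair that reached this spanned 140 kb.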
